A study of Prunus dulcis and Prunus persica and Prunus persica x Prunus dulcis with 15 samples.

Results

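In leaves of a peach x almond F1 hybrid, 99 of the 22274 peach gene models in the count table (0.444%) were transcribed above both parents in every library. These genes were selected on the same values that are described here. For each gene and library the CPM, the count divided by the sum of all counts of that library and multiplied by 1000000, was computed. A gene was taken where the lowest of the 3 hybrid libraries lay above the highest of the 6 parental libraries and where the hybrid mean was at least 1.5 times the higher parental mean. The hybrid mean also had to reach 1 CPM and the mean of each parent 0.5 CPM. These level minimums were met by 15646 gene models, of which the 99 are 0.633%. Without the 1.5-fold minimum, 276 of them (1.76%) had every hybrid library above every parental one.

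The RNA came from fully expanded leaves of almond cultivar Texas, of peach cultivar Early Gold and of their interspecific F1 hybrid, a single hybrid genotype. All trees grew in the field, were normally watered and were sampled at the end of September, at one time of day by the study's methods. Each genotype had 3 RNA-seq libraries, numbered 1, 2 and 3 for almond and for the hybrid and 1, 3 and 4 for peach. The study's methods call them biological replicates. Neither the methods nor the labels say whether they came from separate trees, so the spread between them may not be that between trees. The reads of all 3 genotypes were counted on peach transcripts, so a gene that only almond carries has no row in the table. Whether almond reads align to single peach transcripts as fully as peach reads was not tested here. Differences from almond are uncertain to that extent. The study reported a very close correlation between expression levels from peach and from almond gene models over orthologous genes. A bulk leaf sample cannot tell a larger amount of RNA per cell from a larger share of the cells that make it.

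An F1 hybrid carries 1 genome copy from each parent. Where both copies keep the activity they had in the parent, a gene is transcribed at a level between the parental ones, which is called additive. Levels outside the parental range are called transgressive, and they can arise where regulators from one parent act on gene copies from the other. The 99 genes carry only peach identifiers, which neither the deposited tables nor the annotation used here pair with a gene name, and for this reason no function is given for any of them. For the same reason the leaf origin of the libraries was not checked against marker genes.

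The libraries held from 7485763 to 17725455 read pairs, with almond 1 and almond 3 (8504083) the shallowest and the others at 11726323 or more. Replicates differed by more than counting error, with a chi-square per degree of freedom from 11.2, between hybrid 2 and hybrid 3, to 49.3. All 99 genes had read pairs in every library. Their lowest hybrid library held 13 read pairs or more, with a median of 218, and 14 genes had under 50 read pairs in some hybrid library. In some parental library 17 genes had under 10 read pairs. The hybrid means ran from 1.34 to 992.7 CPM with a median of 20.77 CPM, and 19 genes reached 100 CPM.

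Most of the genes lay close above the minimum of the rule. The ratio of the hybrid mean to the higher parental mean had a median of 1.74, with quartiles of 1.633 and 1.999 and a highest value of 9.349. In 74 genes it was between 1.5 and 2, in 25 it was at least 2 and in 5 at least 3. Over the lower parental mean the ratio ran from 1.61 to 116.4, with a median of 2.781. The hybrid mean was above the sum of both parental means in 58 of the 99 genes, with a median ratio to that sum of 1.077. These values describe how the genes were chosen and support no statement on the hybrid.

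The gap between single libraries was narrow in many of the genes. The lowest hybrid library exceeded the highest parental library by a factor of 1.006 to 2.849, with a median of 1.163. In 32 genes this factor was under 1.1, in 10 it was at least 1.5, and only Prupe.8G110300.1 and Prupe.4G202800.1 reached 2. The genes found depended on which libraries were present, since leaving one out removes a bar to overlap and also shifts the means. Without hybrid 1 the rule found 161 genes, 84 of them among the 99, and without hybrid 2 it found 159, 92 of them among the 99.

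**Figure D1:**
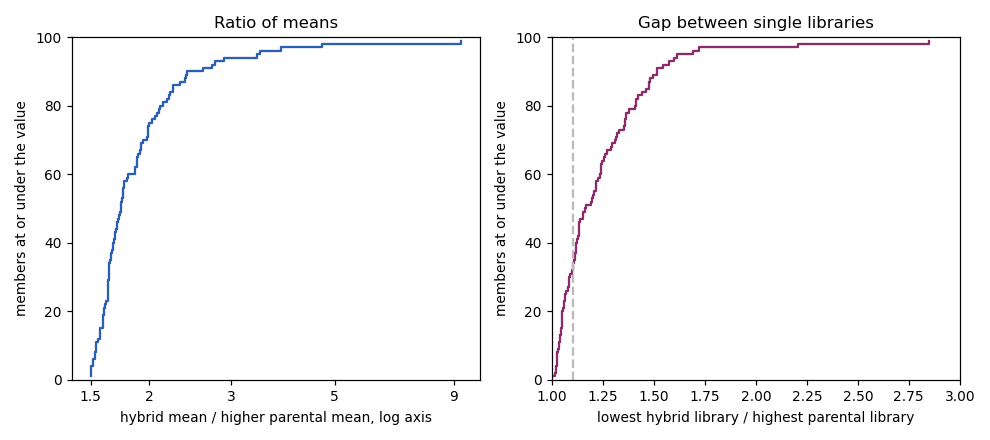
Left, the ratio of the hybrid mean to the higher parental mean on a log axis; right, the CPM of the lowest hybrid library over that of the highest parental library. Each line counts the genes at or under the value: on the left it climbs steeply between 1.5 and 2, where 74 of the 99 genes lie, and on the right 32 genes lie under the dashed line at 1.1.

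The genes on either side of the 1.5-fold minimum were much alike. Just inside it lay Prupe.5G215900.1 with a ratio of 1.502, Prupe.7G266800.1 with 1.503 and Prupe.4G169200.1 with 1.503. Just outside lay Prupe.1G053300.1 with 1.497, Prupe.6G138000.1 with 1.492 and Prupe.2G274200.1 with 1.487, all with hybrid libraries above every parental library. In Prupe.5G215900.1 the hybrid libraries were at 3.856 to 4.356 CPM and the almond libraries at 1.87 to 3.498 CPM. In Prupe.1G053300.1 the hybrid libraries were at 98.58 to 120.1 CPM and the highest parental library, peach 1, at 85.64 CPM.

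Prupe.6G318100.1 had the highest ratio of the 99. It was at 124.5, 200.1 and 687.3 CPM in hybrid 1, 2 and 3, at 10.69, 86.37 and 11.17 CPM in almond 1, 2 and 3, and at 0.1907, 21.75 and 6.253 CPM in peach 1, 3 and 4. One library stood far above the others in each genotype: hybrid 3, almond 2 and peach 3. The ratio of 9.349 moved with these libraries, to 4.5 without hybrid 3 and to 30.9 without almond 2. Between the parents it was not called, with a log2 fold change of peach over almond of -1.86 ± 1.13 (SE, n = 3 and 3) and an adjusted p of 0.238 in edgeR's quasi-likelihood test.

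The second gene, Prupe.1G235800.1, was high in the same 3 libraries. Its level was 176.0, 329.6 and 735.6 CPM in hybrid 1, 2 and 3, against 58.51, 165.1 and 40.1 CPM in almond 1, 2 and 3 and 11.44, 87.64 and 24.75 CPM in peach 1, 3 and 4. Hybrid 1 and almond 2 were only 1.066 times apart. Its ratio of 4.706 became 2.88 without hybrid 3 and 8.39 without almond 2. In both genes the spread within the hybrid (5.523 and 4.18 times between its highest and lowest library) was wider than in most of the 99, whose hybrid libraries were a median of 1.452 times apart. Of all 99, the hybrid libraries of 7 genes were more than 2 times apart.

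The widest separation of single libraries was in Prupe.8G110300.1. The hybrid libraries were at 42.0, 54.11 and 44.17 CPM, the peach libraries at 12.46, 13.32 and 14.74 CPM and the almond libraries at 7.347, 8.97 and 4.939 CPM. The 3 genotypes did not overlap, and the order was almond, peach, hybrid. Its ratio of 3.462 lay between 3.19 and 3.64 when each library was left out in turn. Peach exceeded almond by 0.998 ± 0.211 (SE) on the log2 scale, with an adjusted p of 0.00368 in edgeR, and the gene was not called because this difference was under the minimum of 1.

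Prupe.4G202800.1 reached a ratio of 3.836 at a low level. Its hybrid libraries were at 1.742, 2.46 and 2.558 CPM, which rest on 28, 37 and 30 read pairs, while the parental libraries were at 0.2672 to 0.7898 CPM on 2 to 14 read pairs. Its parents were at almost the same level, with a log2 fold change of -0.04 ± 0.673 (SE). At such depth the size of the ratio is loosely set, although the groups did not overlap.

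In Prupe.1G324300.1 and Prupe.1G096900.1, hybrid 1 was the highest library. Prupe.1G324300.1 was at 11.33, 8.243 and 4.946 CPM in hybrid 1, 2 and 3 and at 4.852 CPM in almond 2, while almond 1 and almond 3 were at 0.5343 and 1.293 CPM. Hybrid 3 thus lay only 1.019 times above almond 2. Prupe.1G096900.1 was at 582.8, 307.6 and 259.8 CPM in the hybrid, at 104.5, 108.8 and 184.1 CPM in peach and at 27.52, 19.29 and 5.174 CPM in almond. Here the 3 genotypes were apart, with almond lowest, and the hybrid mean was 2.895 times the peach mean. This ratio fell to 2.14 without hybrid 1.

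The other genes among the leading 20 had ratios from 2.110 in Prupe.4G251700.1 to 2.772 in Prupe.6G297200.1. Prupe.6G297200.1 was at 20.22, 13.89 and 22.6 CPM in the hybrid, at 9.409, 5.126 and 5.924 CPM in peach and at 6.412, 4.965 and 3.88 CPM in almond. The parental libraries overlapped and the hybrid ones stood apart from both. Prupe.6G161700.1 behaved likewise, with 51.4, 60.03 and 70.87 CPM in the hybrid against 15.64 to 33.91 CPM in almond and 23.89 to 32.38 CPM in peach. In Prupe.4G251700.1 the hybrid libraries were at 76.48, 102.2 and 122.6 CPM and the highest parental library, almond 1, at 65.46 CPM.

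Others of the 20 rested on few reads or on 1 library. Prupe.5G081100.1 had 30, 16 and 15 read pairs in the hybrid and 15 in peach 4, its highest parental library. Prupe.7G164100.1 had 29, 46 and 26 read pairs in the hybrid, and hybrid 1 lay 1.023 times above almond 3. Prupe.1G194900.1 had 42 to 50 read pairs in the hybrid, and almond 3 and peach 4 were its high parental libraries. In Prupe.3G273900.1 the hybrid libraries were 2.151 times apart, with 52.27 CPM in hybrid 1 and 24.3 CPM in hybrid 3. Without hybrid 1 its ratio was 1.68, down from 2.224. Prupe.3G189600.1, Prupe.4G208300.1, Prupe.1G284900.1 and Prupe.2G250900.1 were also low, with hybrid libraries between 2.427 and 6.822 CPM, but kept their lowest hybrid library at least 1.458 times above every parental one.

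**Figure D2:**
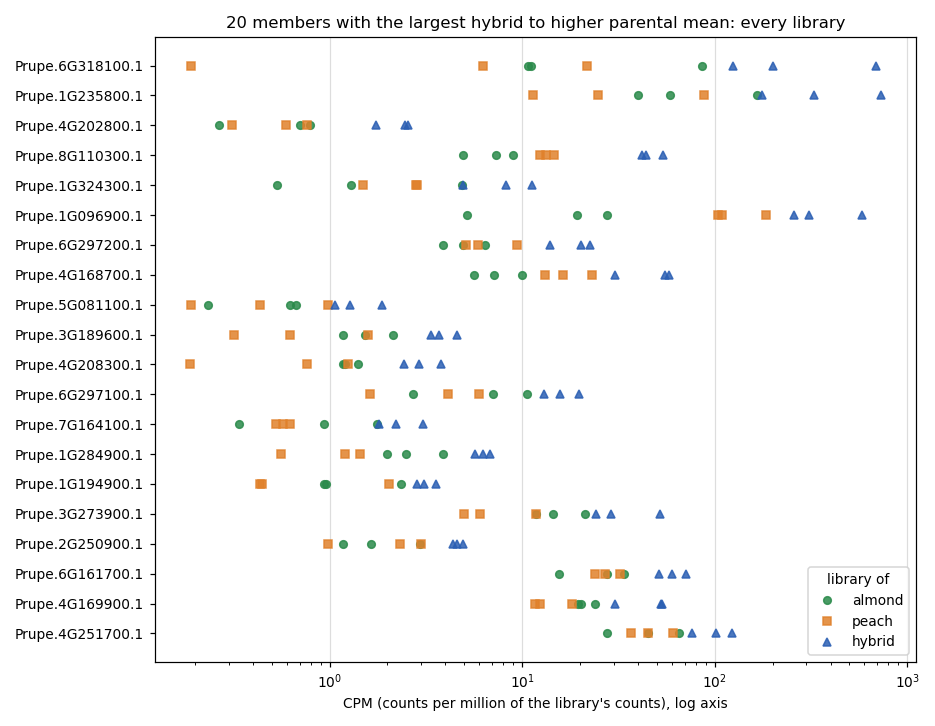
CPM of every library, on a log axis, for the 20 genes with the largest ratio of the hybrid mean to the higher parental mean, ordered by that ratio from the top. Each point is 1 library; blue triangles (hybrid) lie right of all green circles (almond) and orange squares (peach), as the rule demands, with a clear gap in Prupe.8G110300.1 and hardly any in Prupe.1G324300.1.

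The same library was not always the extreme one. Hybrid 3 was the highest hybrid library in 41 of the 99 genes (41.4%, against 34.4% of the genes meeting the level minimums), hybrid 2 in 30 (30.3% against 29.7%) and hybrid 1 in 28 (28.3% against 35.8%). Hybrid 1 was the lowest in 47 (47.5% against 43.7%). Among the peach libraries, peach 1 was highest in 53 genes (53.5%, against 34.7% of the genes meeting the level minimums), peach 4 in 32 (32.3% against 40.9%) and peach 3 in 14 (14.1% against 24.4%). Among the almond libraries, almond 1 was highest in 44 (44.4% against 37.8%), almond 2 in 36 (36.4% against 29.7%) and almond 3 in 19 (19.2% against 32.4%). Libraries of 1 parent were more than 2 times apart in 25 genes for almond and in 26 for peach.

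Whether the parents themselves differed in these genes was asked with edgeR over all 19085 features that passed the filter on low counts, where a gene was called if its adjusted p was below 0.05 and its fold change reached 1 on the log2 scale. The rule did not use the difference between peach and almond, although it used their values as a ceiling and as a floor of 0.5 CPM in each parent. That floor left out genes nearly silent in 1 parent. With no minimum level in the parents the rule found 131 genes. Of the 99 genes, 10 were higher in peach (10.1%, against 11.2% of all features tested) and 13 were higher in almond (13.1%, against 10.3%). Together the 23 called genes were 23.2% of the 99 and the called features 21.5% of all features. Among the genes that met the level minimums, as the 99 had to, 8.97% were higher in peach and 8.4% higher in almond. The remaining 76 genes were not called, some of them only because their difference was under the minimum of 1. With no minimum fold change, 30 of the 99 genes had an adjusted p below 0.05 in edgeR. The share of all features at that setting was not counted, so nothing is read from this number.

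The median log2 fold change of peach over almond was -0.03 in the 99 genes and 0.00 over all features tested. The almond mean was the higher in 58 genes and the peach mean in 41. The parental means were at least 2 times apart in 26 genes (26.3%), beside 21.2% of the genes that met the level minimums. The median distance was 1.491 times, beside 1.349 times over the genes that met the level minimums. Genes with close parental levels and genes with distant ones were thus both present.

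Prupe.3G142400.1 had the largest difference between the parents. It was at 109.9, 95.4 and 62.09 CPM in almond and at 0.3815, 1.063 and 2.04 CPM in peach, a log2 fold change of -6.18 ± 0.433 (SE). The hybrid libraries were at 144.2, 124.5 and 136.8 CPM, which is 1.516 times the almond mean and 116.4 times the peach mean. All 3 hybrid libraries lay above almond 1, the highest parental library, by a factor of at least 1.133.

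The next genes in that direction were Prupe.8G152900.1 and Prupe.8G027300.1. Prupe.8G152900.1 was at 291.1, 288.2 and 167.4 CPM in almond, at 14.56, 55.76 and 36.33 CPM in peach and at 521.0, 347.2 and 324.7 CPM in the hybrid. Its log2 fold change between the parents was -2.72 ± 0.424 (SE) with an adjusted p of 0.000507 in edgeR. Prupe.8G027300.1 was at 22.71 to 26.23 CPM in almond, 3.242 to 6.439 CPM in peach and 31.55 to 51.12 CPM in the hybrid. Its log2 fold change was -2.44 ± 0.294 (SE). In both genes the 3 genotypes were apart, with peach lowest and the hybrid highest.

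In the other direction the largest differences were in Prupe.1G096900.1, whose values are given above, with 3.02 ± 0.508 (SE), in Prupe.4G226000.1 with 2.89 ± 0.273 and in Prupe.5G164500.1 with 2.16 ± 0.327. Their adjusted p in edgeR was at most 0.000859. Prupe.4G226000.1 was at 16.56, 20.03 and 9.878 CPM in almond, at 121.8, 83.52 and 123.0 CPM in peach and at 162.4, 136.7 and 228.4 CPM in the hybrid. Prupe.5G164500.1 was at 3.667 to 6.813 CPM in almond, and its lowest hybrid library (26.69 CPM) hardly passed its highest peach library (26.19 CPM). The other called genes had log2 fold changes between 1.09 and 1.66 when higher in peach, and between -1.14 and -1.99 when higher in almond.

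**Figure D3:**
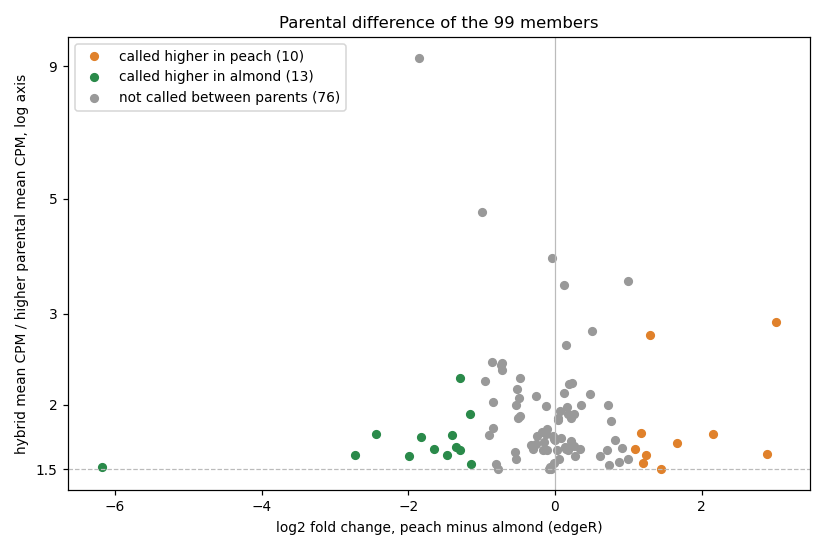
Log2 fold change of peach over almond (edgeR, horizontal axis) against the ratio of the hybrid mean to the higher parental mean (log axis) for the 99 genes, 1 point per gene. The 10 genes called higher in peach are orange, the 13 called higher in almond green and the other 76 grey; most points cluster around 0 between ratios of 1.5 and 2, and the dashed line marks the minimum ratio.

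The comparisons of the hybrid with each parent used the same libraries as the rule, so their calls are given as a description only. The hybrid was called above almond in 30 of the 99 genes (5.62% of all features tested) and above peach in 38 (5.2% of all features tested). Both comparisons share the hybrid libraries. At least 1 of the calls was made in 59 genes and neither in 40, and the shares of these over all features were not counted. A call needed a 2-fold difference, which is more than the rule asked for. Missing calls thus follow in part from the choice of minimums, and no conclusion is drawn from their number. Both calls were made in 9 genes, while 13 of all features tested (0.0681%) had both. The 9 were Prupe.8G110300.1, Prupe.6G297200.1, Prupe.4G168700.1, Prupe.6G161700.1, Prupe.4G169900.1, Prupe.4G251700.1, Prupe.8G044300.1, Prupe.4G284300.1 and Prupe.4G063600.1. Of the 5 genes with a ratio of at least 3 only Prupe.8G110300.1 was among them. The number was 15 without hybrid 1 and 5 without hybrid 3.

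Of these 9 genes the last 3 stood outside the leading 20. Prupe.8G044300.1 was at 14.87, 16.35 and 24.05 CPM in the hybrid and at 5.314 to 10.1 CPM in the parents. Prupe.4G284300.1 was at 10.45, 14.49 and 13.64 CPM against 3.433 to 7.408 CPM. Prupe.4G063600.1 was at 13.01, 16.22 and 15.44 CPM against 5.409 to 9.591 CPM. In each the almond and peach libraries overlapped.

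Chromosome and order were read from the identifiers of the gene models, taking the digit before the letter G as the chromosome and the number after it as the order. This reading was not checked against an annotation, and all positions below rest on it. All 99 genes carried a chromosome number. Chromosome 4 held 22 of them, or 22.2%, while it held 10.6% of the gene models. As a share of the models that met the level minimums, the genes were 1.36% on chromosome 4, 0.853% on chromosome 2 and 0.185% on chromosome 7, where only 3 were found, and between 0.448% and 0.675% on the other 5. The opposite set was 107 genes whose hybrid libraries all lay below every parental library by the mirrored rule. It had 9 genes on chromosome 4 and 24 on chromosome 1, which held 22.1% of the gene models. The whole opposite set numbered 181 genes without hybrid 1. These shares carry no test, since neighbouring models may share reads or regulation.

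**Figure D4:**
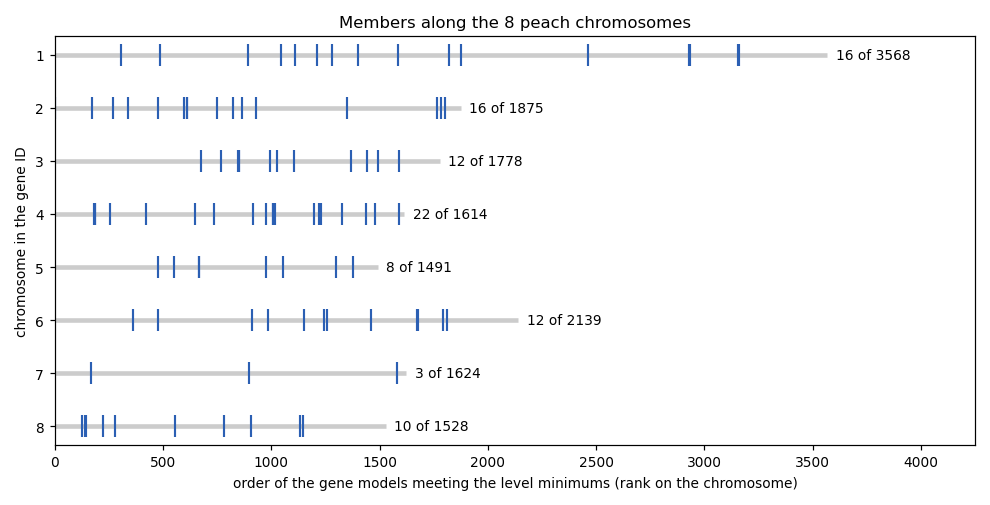
Position of the 99 genes (blue marks) among the gene models that met the level minimums, ranked in the order of their identifiers along each of the 8 chromosomes; the grey bar is as long as the number of such models. The labels give the genes out of the models, and chromosome 4 has 22 while chromosome 7 has 3.

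Some of the genes were direct neighbours. Adjacent model numbers were held by 4 pairs, which are 8 of the 99 genes (8.08%), and 18 genes (18.2%) had another within 5 model numbers. In the opposite set 4 genes (3.74%) were adjacent to another and 9 (8.41%) had one within 5 numbers. The adjacent pairs were Prupe.2G126900.1 with Prupe.2G127000.1, Prupe.3G158900.1 with Prupe.3G159000.1, Prupe.4G169500.1 with Prupe.4G169600.1, and Prupe.6G297100.1 with Prupe.6G297200.1.

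The members of a pair did not always follow the same library pattern. Prupe.2G126900.1 was at 63.28, 63.09 and 84.0 CPM in the hybrid and at 30.46 to 40.88 CPM in the parents, while Prupe.2G127000.1 was at 133.0, 166.8 and 173.8 CPM and at 63.26 to 101.4 CPM. Hybrid 3 was the highest library of both. Prupe.6G297100.1 was at 13.07, 15.82 and 19.87 CPM in the hybrid and its highest parental library was almond 2 at 10.61 CPM, whereas that of its neighbour Prupe.6G297200.1 was peach 1. Whether neighbouring models are near-identical copies that share reads was not tested, and their values are uncertain to that extent.

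A run of 13 successive models on chromosome 4, from Prupe.4G168700.1 to Prupe.4G169900.1, held 6 of the 99 genes among the 10 models that met the level minimums. This stretch was picked after its values had been seen. Elsewhere no stretch of 13 successive model numbers held more than 3. The summed level of the 6 genes was 225.0, 354.3 and 295.1 CPM in hybrid 1, 2 and 3, 154.3, 135.3 and 126.3 CPM in peach 1, 3 and 4 and 126.1, 104.3 and 86.43 CPM in almond 1, 2 and 3. Hybrid 2 was highest and hybrid 1 lowest of the hybrid libraries. The almond sums lay lowest, though almond 1 was hardly under peach 4. This parental order leans on Prupe.4G169200.1, with means of 66.06 CPM in peach and 25.79 CPM in almond, and does not hold for each gene. Only 3 of the 6 met the rule without hybrid 2, and 4 of 6 when size factors of DESeq2 replaced the column sums. Outside the run, chromosome 4 still held 16 of the genes, 0.998% of its models that met the level minimums.

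Within the run the 6 genes differed in which parent was higher. Prupe.4G168700.1 was at 30.3, 57.97 and 55.26 CPM in the hybrid, 13.23 to 23.01 CPM in peach and 5.642 to 10.02 CPM in almond, and was called higher in peach with a log2 fold change of 1.30 ± 0.297 (SE). Prupe.4G169200.1 was at 72.12, 123.9 and 101.9 CPM in the hybrid, 62.33 to 68.03 CPM in peach and 19.17 to 30.46 CPM in almond, and was also called higher in peach with 1.44 ± 0.207 (SE). Peach was thus the higher parent of both. Prupe.4G169500.1 had its highest parental libraries in peach as well (15.2 CPM), with 16.46 to 29.25 CPM in the hybrid.

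Almond was the higher parent in the other 3 genes of the run. Prupe.4G168900.1 was at 55.35 to 70.33 CPM in the hybrid, 25.28 to 42.88 CPM in almond and 19.29 to 28.74 CPM in peach. Prupe.4G169900.1 was at 30.3, 53.05 and 52.87 CPM in the hybrid, 19.52 to 23.91 CPM in almond and 11.69 to 18.12 CPM in peach. Prupe.4G169600.1 was at 10.39, 19.81 and 13.3 CPM in the hybrid, and hybrid 1 lay only 1.024 times above almond 1. None of the 3 was called between the parents.

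The other 4 models of the run that met the level minimums did not meet the rule. Prupe.4G169000.1 and Prupe.4G169300.1 had hybrid means of 0.6705 and 0.892 times the higher parental mean. In Prupe.4G169700.1 the hybrid mean of 12.47 CPM was 1.019 times the almond mean of 12.23 CPM, while peach was at 0.6602 CPM. In Prupe.4G169800.1 the ratio was 1.128, with almond at 15.73 CPM and peach at 2.154 CPM. Around the run, 2 models before it and 4 after it met the level minimums, and these 6 had ratios between 0.7056 and 1.096.

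**Figure D5:**
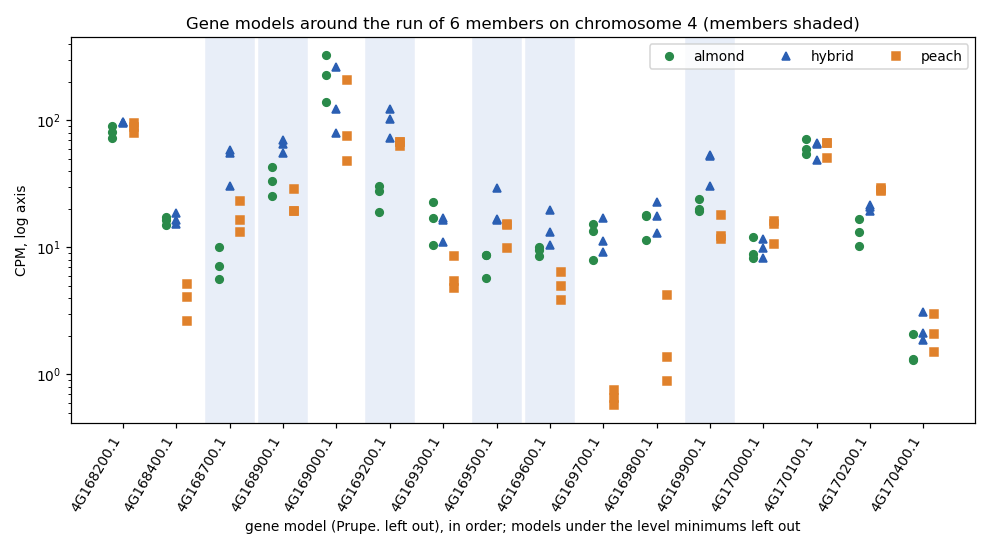
CPM of every library (log axis) for successive gene models on chromosome 4 that met the level minimums, in the order of their identifiers, with the 6 genes of the run shaded. Blue triangles (hybrid) lie above green circles (almond) and orange squares (peach) in the shaded models and among or below them in most of the others; in Prupe.4G169700.1 the peach libraries lie far below both.

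On the scale of the rlog values, 90 of the 99 genes had every hybrid library above every parental one. The other 9 had a hybrid library within the parental range on that scale. Of the 15646 models that met the level minimums, 241 had every hybrid library above every parental one in rlog. The authors computed these values from the same counts that chose the genes, so this is a description only. The difference between the hybrid mean and the higher parental mean in rlog units, which are log2 units shrunken towards the mean of the gene, was between 0.17 and 3.06 with a median of 0.54. It reached 1 in 5 genes. None of the 9 genes for RNA-dependent RNA polymerases, methyltransferases and demethylases that the study followed was among the 99. Since the rule took only 0.633% of the models that met the level minimums, nothing can be read from so short a list.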

How the data were processed

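RNA-seq of leaves was analysed in 9 libraries, 3 per genotype, grouped by their labels. The authors counted paired stranded reads with RSEM, after Bowtie2 alignment to a reference of peach transcripts and representative TE copies, and deposited the counts as whole numbers without normalization. All deposited counts are even, so that a read pair counts as 2, and 2 records that shared a line were separated. The log2 values are rlog values computed by the authors with DESeq2 before they were deposited. CPM, the ratios and the rule were computed with Python 3.11.15, pandas 2.3.3 and numpy 2.4.6, and figures were drawn with matplotlib 3.10.9.

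Peach was tested against almond, and the hybrid against each parent, in R 4.3.3 with the quasi-likelihood test of edgeR 4.0.16, after filterByExpr and TMM scaling (factors 0.943 to 1.05), in 1 fit of all 9 libraries with genotype as the factor. Adjustment (Benjamini-Hochberg) was over 19085 features, 19036 of them genes. DESeq2 1.42.0, a replicate block, other scalings, filters and folds, and leaving out each library were alternatives, and medians, halved counts and a minimum of 20 read pairs were added after seeing the data. In simulated data of 19085 features comparing peach with almond, edgeR recovered 71% of genes changed by 2 and 84.1% of genes changed by 3 on the log2 scale. Each SE of a log2 fold change was computed back from that test, as the absolute fold change over the square root of its F value. It thus rests on the fit of all 9 libraries. The p-values and the SE measure only the spread between these libraries.

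The members and lists were chosen with earlier results of these data known. The genes named are the 20 with the largest ratio, the 3 on either side of the 1.5-fold minimum, the 3 with the largest called difference between the parents in each direction, and neighbouring models, and others were named after their values were seen. Gene lists by product name, promoter sequences and the methylation of TEs near the genes were not analysed here, because 0 of the gene identifiers matched the reference gene table used.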

Additional observations from a re-analysis of the deposited data

How the results depend on the processing

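The rule found 99 genes. It found 25 with a minimum fold of 2, 276 with no minimum fold and 241 on the deposited rlog values with no minimum fold, and between 106 and 161 when 1 library was left out, of which 84 to 95 were among the 99. Under TMM scaling it found 104 (92 shared), with DESeq2 size factors 90 (87 shared) and with medians in place of means 73 (65 shared). The opposite set of 107 genes became 49 with a minimum fold of 2, 256 with none, and 112 to 181 when 1 library was left out. Of 1089 ratios recomputed for the 99 genes none was below 1, the lowest was 1.24, and 41 genes fell under 1.5 in at least 1 alternative. The 23 calls between the parents became 30 with no minimum fold change and 19 to 25 without 1 library. In none of these 23 genes did the direction between the parents reverse under an alternative. For the genes not called it was not followed. Genes with a neighbour numbered 8 for adjacent models, 14 at most 2 numbers apart and 18 at most 5 apart. Between genotypes, deviations from the genotype mean correlated at -0.0618 to 0.154 in same-numbered libraries and at -0.195 to 0.104 in the other pairs. With so few libraries this cannot decide whether replicate numbers pair them, and the main fit had no replicate block. With a replicate block, 23 genes were called between the parents and 5, in place of 9, were called above both. The number called above both was 11 in DESeq2 and 5 to 15 without 1 library. The main fit took the deposited counts, in which a read pair counts as 2. On halved counts 7 genes were called above both and 23 between the parents. In all of these the cause was not tested, except that a lower fold relaxes the rule by construction. Alternatives for TE methylation near the genes were not run. Low counts limit 14 genes with under 50 read pairs in a hybrid library.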

Other observations

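Outside the gene models, 1 of the 60 TE families in the count table met the same rule. The LTR retrotransposon family LTR_155 was at 32.3, 41.22 and 45.71 CPM in hybrid 1, 2 and 3, at 24.98, 18.0 and 21.87 CPM in almond 1, 2 and 3 and at 20.54, 21.13 and 27.51 CPM in peach 1, 3 and 4. Its hybrid mean was 1.723 times the peach mean, and hybrid 1 lay closest to the parents. All 13 features called above both parents in edgeR were genes, so LTR_155 was not called. The study, which used DESeq2 with a log fold-change minimum of 1, reported no TE family above both parents.

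Among the 13 features called above both parents, 4 genes were not among the 99 because 1 parent was under 0.5 CPM on average. Prupe.4G200100.1 had means of 125.1 CPM in the hybrid, 53.46 CPM in peach and 0.03761 CPM in almond, and Prupe.7G210800.1 had 8.868 CPM, 2.375 CPM and 0 counts in almond. In Prupe.5G228400.1 the hybrid mean was 28.02 CPM, the almond mean 4.42 CPM and the peach mean 0.1316 CPM, and in Prupe.2G199600.1 they were 21.49, 6.91 and 0.02084 CPM. In all 4 every hybrid library lay above every parental library.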
